A study of Mus musculus with 48 samples.

Results

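The genes described here are 10 that sense or carry products of the gut microbiota, measured in the mouse colon: the free fatty acid receptors Ffar1, Ffar2, Ffar3 and Ffar4, the receptors Hcar2 and Gpr35, the monocarboxylate carriers Slc5a8, Slc16a1 and Slc16a3, and the nuclear sensor Ahr. They were chosen by name for what their proteins bind or carry, with earlier results of these data known. All 10 were found among the 55401 genes of the count table and passed the filter on low counts, with 14475 genes tested in all. Of the 10, Ffar2, Slc16a1 and Ffar4 were higher in mice whose intestinal epithelium lacks Bmal1. Ffar2 was the member whose course over the day changed with the genotype. The study had already reported, from the same data, a loss of the Ffar2 rhythm in the mutant mice. The carrier Slc5a8, the receptors Gpr35, Ffar1 and Ffar3, the carrier Slc16a3 and Ahr did not pass the test of the genotype difference, and neither did Hcar2, whose mean was lower in the mutant mice.

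Whole colon RNA was sequenced from 48 mice, at 6 circadian times spaced by 4 h from CT1 to CT21, with 4 mice per genotype and time. The mice were male, on a C57BL/6J background and 18 to 20 weeks old, and were killed in constant darkness, so that the times follow the internal clock and not a light cycle. Both genotypes carry floxed alleles of Bmal1, the activator without which the molecular clock stops. In Bmal1iec-/- mice, a Cre recombinase driven by the villin promoter removes the gene in epithelial cells of the intestine, and the Bmal1fl/fl littermates without Cre served as controls. The colon also holds muscle, connective tissue and immune cells in which Bmal1 stays intact, and in such bulk tissue fewer cells of a type and less RNA per cell cannot be told apart.

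Bacteria in the colon ferment fibre to the short-chain fatty acids acetate, propionate and butyrate, and colonocytes burn butyrate as their main fuel. Ffar2 and Ffar3 bind these acids on enteroendocrine, epithelial and immune cells, Ffar1 and Ffar4 bind medium-chain and long-chain fatty acids, Hcar2 binds butyrate, niacin and the ketone body beta-hydroxybutyrate, and Gpr35 is linked to kynurenic acid and other metabolites. Slc16a1 (MCT1) and Slc5a8 (SMCT1) carry butyrate and lactate into the cell, Slc16a3 (MCT4) mostly exports lactate, and Ahr binds bacterial indoles and then switches on detoxifying genes.

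The starts of the 3 genes that rose are shown because E-boxes, the element that BMAL1 and its partner CLOCK bind, could be looked for in them. Promoter windows from RefSeq (GRCm38.p6; 250 bases before to 50 after a start) matched 8 of the 10 genes, with several starts for Ffar2 and Gpr35. Hcar2 and Ahr had no entry. The lines give the 250 bases before the start, 5′ to 3′ along the gene's own strand, from chr7:30823776-30824025 (minus strand) for the first Ffar2 start, chr3:104638414-104638663 (plus strand) for Slc16a1 and chr19:38096829-38097078 (plus strand) for Ffar4. Capitals mark the E-box CACGTG, the Rev-erb/ROR site AGGTCA and the core GCGTG of the element that AHR binds, on either strand.
Ffar2: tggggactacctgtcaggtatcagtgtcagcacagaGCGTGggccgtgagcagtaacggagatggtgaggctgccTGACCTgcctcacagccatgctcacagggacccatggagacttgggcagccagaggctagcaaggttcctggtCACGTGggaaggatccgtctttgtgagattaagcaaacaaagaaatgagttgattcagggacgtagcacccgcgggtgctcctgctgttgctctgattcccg
Slc16a1: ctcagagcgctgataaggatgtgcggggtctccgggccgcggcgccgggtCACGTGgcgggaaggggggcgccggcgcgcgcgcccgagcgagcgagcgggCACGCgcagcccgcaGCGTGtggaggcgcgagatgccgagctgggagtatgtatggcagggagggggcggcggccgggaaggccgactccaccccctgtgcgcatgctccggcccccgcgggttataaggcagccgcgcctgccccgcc
Ffar4: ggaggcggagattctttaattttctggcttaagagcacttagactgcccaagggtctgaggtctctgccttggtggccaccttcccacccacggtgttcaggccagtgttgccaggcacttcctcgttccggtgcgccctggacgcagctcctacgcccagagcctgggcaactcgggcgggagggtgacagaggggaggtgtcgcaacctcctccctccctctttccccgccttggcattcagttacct
The E-box lay 102 bases before the Ffar2 start and 200 bases before the Slc16a1 start, and no other window of a member held one. None of the 3 marked motifs was in the 250 bases of Ffar4. Over 32851 windows of the same table, 7.15% held CACGTG, 16.255% AGGTCA, 32.386% GCGTG and 3.385% the D-box TTATGNAA, each searched on both strands. The site AGGTCA stood on the opposite strand 175 bases before the first Ffar2 start. It was also found 89 and 142 bases before starts 3 and 4 of Ffar2, whose windows overlap. GCGTG was also found in the window of Slc5a8, 175 bases before its start. The D-box was in none of the members' windows. These matches describe letters in a window and are not evidence of binding.

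Between 3144997 and 4785844 reads were counted on genes per mouse, and a count of 0 allows up to 3 reads at this depth, by counting error alone. Replicates differed by more than counting error (chi-square per gene 1.95 to 12.2 over 67 pairs). Markers of 12 cell types were used to check the tissue: all 10 colonocyte markers were measured in every comparison, with a summed level of 18340.5 to 24692 CPM (counts scaled to a common library total) in controls and 18812 to 23622 in the 22 Bmal1iec-/- mice of the fits. Of the 6 pancreas markers, Ins1 and Ins2 were at 0 in all 48 mice, and Cpa1, Prss2 and Pnlip were each at 0 in 46 of the 48. Cela1 was at 35.4 to 57.8 CPM in the 46 mice of the fits. The count of Bmal1 itself, listed as Arntl, covers exons outside the deleted part and cells that keep the gene, and so does not check the genotype by its level. It swung in controls between 260.0 ± 18 (SD, n = 4) normalized counts at CT1 and 26.4 ± 8.82 at CT9 and stayed between 114 and 177 in Bmal1iec-/- mice. Nr1d1, which BMAL1 activates, was lower in Bmal1iec-/- mice (log2 fold change −1.48, SE 0.12, adjusted p = 2.39e-13 in edgeR). The Bmal1iec-/- mice SV384 and SV385 at CT1 stood apart from the rest of their group: their log2 CPM correlated with those of SV479 and SV480 at 0.954 to 0.965, against 0.984 between the latter pair, and smooth muscle markers summed to 774 and 3183 CPM in them against 3115 to 5311 in the other 22, so that 1 of the pair lay within that range. Both were above every control of CT1 in 25.2% of genes tested. The study left this pair out of its normalization, so values are given over 46 mice, and over all 48 where that changes a call.

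Per base of transcript, the carriers Slc16a1 and Slc5a8 and the receptor Ffar4 had the highest levels of the 10 genes, and the carrier Slc16a3 was among the lowest. In controls the level in TPM (counts per exon length, scaled to a common total) was 146 ± 25.5 (SD, n = 24) for Slc16a1, 100.3 ± 14.7 for Slc5a8 and 90.5 ± 35.8 for Ffar4, which placed them at or above the 87.8th percentile of the genes tested. Ffar2 followed at 34.2 ± 11.9, Gpr35 at 24.7 ± 4.59 and Ahr at 12.1 ± 1.61 TPM. Hcar2 (2.96 ± 1.25), Ffar3 (2.37 ± 1.40), Slc16a3 (1.89 ± 0.584) and Ffar1 (1.35 ± 0.744) lay within the lowest 10.2% of genes tested. These last 4 genes had between 1 and 23 reads per mouse in the 46 mice, so that only large differences were detectable for them at this depth. In Bmal1iec-/- mice the order of the 10 levels differed at 2 steps, Ffar4 (114 ± 21.8 TPM, n = 22) standing above Slc5a8 (94.9 ± 21.4) and Ffar3 (2.99 ± 1.22) above Hcar2 (2.06 ± 0.926), and the levels of each pair overlapped over mice in both genotypes.

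**Figure D1:**
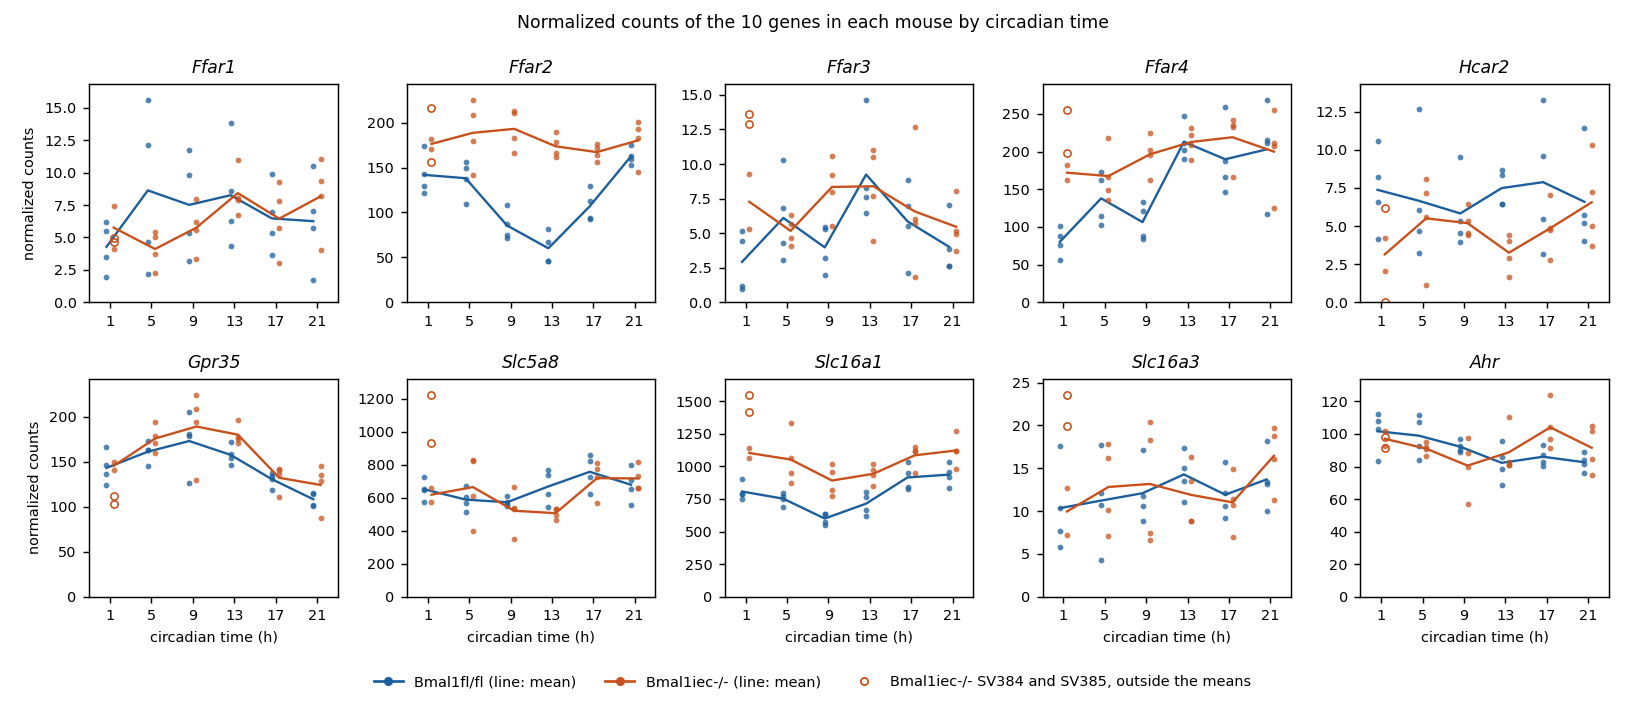
Normalized counts of the 10 genes in each mouse (points, vertical axis, starting at 0) against circadian time (horizontal axis, h), in controls (blue) and Bmal1iec-/- mice (orange), with lines through the means of 4 mice (2 in Bmal1iec-/- at CT1) and open points for SV384 and SV385. Ffar2 falls to 60.2 at CT13 in controls and stays between 167 and 193 in Bmal1iec-/- mice.

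Across all times, 3 of the 10 genes were higher in Bmal1iec-/- mice and 0 were lower, at an adjusted p under 0.05 in a model of genotype and time (edgeR's quasi-likelihood test, Benjamini-Hochberg over 14475 genes). Of all genes tested, 5.44% were higher and 5.64% lower by the same rule. Ffar2 alone also passed a fold change of 1.5, as did 1.36% of genes tested. The median log2 fold change of the 10 was 0.08, beside 0.0049 over all genes. Before adjustment, 1 gene that was lower (Hcar2) and 1 more that was higher (Gpr35) were also under 0.05 in edgeR. DESeq2 called 3 higher and 0 lower after adjustment.

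**Figure D2:**
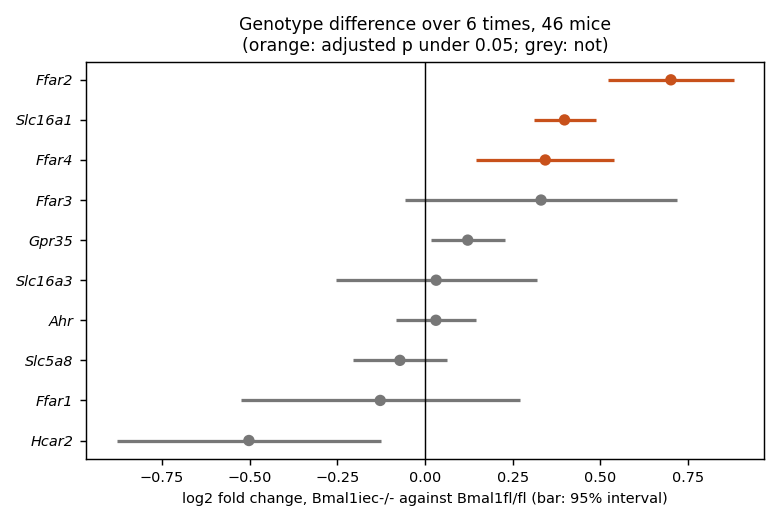
Log2 fold change between Bmal1iec-/- and control mice over the 6 times for each gene (horizontal axis; points with 95% intervals, 22 against 24 mice), in orange where the adjusted p was under 0.05. Ffar2 (0.70), Slc16a1 (0.40) and Ffar4 (0.34) lie to the right of 0, and Hcar2 (−0.50) has the lowest estimate with a wide interval.

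Ffar2 (ENSMUSG00000051314.11, chr7:30818348-30823775, minus strand) encodes a receptor for acetate and propionate that couples to inhibitory and Gq-type G proteins. At CT13 its normalized counts were 67.3, 46.3, 81.4 and 45.7 in controls and 166, 161, 189 and 178 in Bmal1iec-/- mice. At CT9 they were 87.4, 75.3, 71.3 and 108 in controls against 166, 211, 212 and 182, and at CT17 93.4, 113, 92.4 and 129 against 176, 172, 164 and 156. At these 3 times every Bmal1iec-/- mouse was above every control, as were 6.60%, 1.99% and 2.07% of all genes tested at CT13, CT9 and CT17. At CT21 the controls reached 176, 159.8, 153 and 163 and the Bmal1iec-/- mice 145, 183, 193 and 201. At CT1 the values were 174, 121, 129 and 143 against 182 and 171, and at CT5 109, 137, 149 and 157 against 225, 208, 142 and 179.6. The genotypes overlapped at CT21, CT1 (where the lower Bmal1iec-/- mouse was below the highest control) and CT5, the times when controls were high.

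The Ffar2 mean was 116 ± 39.4 (SD, n = 24) in controls and 180.2 ± 21.7 (n = 22) in Bmal1iec-/- mice, a 1.63-fold difference (95% interval 1.44 to 1.84; log2 fold change 0.70, SE 0.09, adjusted p = 1.12e-07 in edgeR's quasi-likelihood test). It stayed past the threshold whichever single mouse was left out (adjusted p 3.4e-08 to 3.54e-07) and under the alternatives tested against no change (1.87e-16 to 0.000547, with 1.22e-07 over all 48 mice). Tested against a fold of 1.5 in place of 1, its adjusted p was 1 in edgeR, so that the difference was not shown to exceed that fold. By time, the log2 fold change was 1.52 (SE 0.16, adjusted p = 3.08e-09) at CT13, 1.17 (SE 0.15, adjusted p = 5.03e-07) at CT9 and 0.65 (SE 0.15, adjusted p = 0.00989) at CT17, and 0.15 to 0.45 at the other times without passing the edgeR test.

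The rhythm of Ffar2 in controls had its highest mean at CT21 (163 ± 9.42) and its lowest at CT13 (60.2 ± 17.3), 2.71-fold apart, with neighbouring times in the order CT21, CT1, CT5, CT17, CT9, CT13 overlapping in every step. A 24-h cosine had an amplitude of 40.7% of the mean level and a peak at 23.9 ± 0.48 h (SE). In Bmal1iec-/- mice the means ran from 167 to 193, 1.15-fold apart, with a cosine amplitude of 5.83%. JTK_cycle, a rank test for rhythms with an exact null distribution, gave p = 4.39e-06 in controls (q = 0.000263 over all genes) and p = 0.543 in Bmal1iec-/- mice. The difference in rhythm itself was tested in edgeR as an interaction between genotype and the terms of a 24-h cosine curve, and passed (adjusted p = 0.000453, and 0.000126 to 0.00123 with any single mouse left out, 1.46e-06 to 0.00045 over the other alternatives). Of all genes tested 0.940% passed this test, and Ffar2 was the 1 member of 10 that did.

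Ffar3 (ENSMUSG00000019429.7, chr7:30854330-30856178) and Ffar1 (ENSMUSG00000044453.5, chr7:30857390-30861564) lie beside Ffar2 on the same strand, with 30554 bases between Ffar2 and Ffar3 and 1211 between Ffar3 and Ffar1. Ffar3 prefers propionate and butyrate and couples to inhibitory G proteins. Its normalized counts in controls had a lowest, median and highest value of 0.962, 5.23 and 14.6, and in Bmal1iec-/- mice of 1.86, 5.86 and 12.7. The genotypes overlapped at 4 of 6 times. At CT9 the normalized counts of the Bmal1iec-/- mice were above all controls (5.53 to 10.6 against 1.96 to 5.42), as in 1.99% of genes tested. The raw reads there overlapped (5 to 12 against 2 to 6), and the edgeR test did not pass (adjusted p = 0.376). At CT1 the pair in the fit, at 5.29 and 9.25, was above the controls at 0.962 to 5.16. The reads there were 5 and 9 against 1 to 5. At CT1, where only 2 Bmal1iec-/- mice stand against 4, 16.7% of all genes tested were higher without overlap. The log2 fold change over all times was 0.33 (SE 0.20, adjusted p = 0.315 in edgeR). SV384 and SV385 had 13.6 and 12.9, and with them the difference at CT1 passed the edgeR test (log2 fold change 1.75, adjusted p = 0.0089, against 1.28 and 0.278 without them).

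Ffar1, the receptor for long-chain fatty acids that pancreatic beta cells also use, was at 1.73 to 15.6 normalized counts in controls and 2.26 to 11.1 in Bmal1iec-/- mice, with 6.90 ± 3.84 and 6.51 ± 2.53 (SD) as means. Its genotypes overlapped at all 6 times (log2 fold change −0.13, SE 0.20, adjusted p = 0.762 in edgeR), and JTK_cycle called no rhythm in controls (exact p = 1) or in Bmal1iec-/- mice (exact p = 0.18, or 0.0246 with 1 of these mice left out). Of the 3 genes of this cluster, Ffar2 passed the test of genotype and the other two, at 1 to 16 reads per mouse, did not. Whether their genotype differences differ from that of Ffar2 was not tested.

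Ffar4 (ENSMUSG00000054200.7, chr19:38097071-38114263, plus strand), a receptor for long-chain unsaturated fatty acids found on enteroendocrine and epithelial cells of the colon, differed at 2 times. At CT1 its normalized counts were 87.8, 76.0, 55.7 and 101 in controls and 162 and 182 in Bmal1iec-/- mice. At CT9 they were 83.5, 88, 121 and 133 against 196, 202, 162 and 224. At both times the genotypes did not overlap, as held for 16.7% (CT1) and 1.99% (CT9) of genes tested in this direction. At CT13 the values were 212, 202, 189.8 and 247 in controls and 189, 208, 231 and 222 in Bmal1iec-/- mice, and the means were both 213. At CT5 the controls had 162, 173, 102 and 114 and the Bmal1iec-/- mice 219, 149, 136 and 166. The genotypes overlapped here and at CT17 (147 to 259 against 166 to 242) and CT21 (117 to 268 against 126 to 256), and both had their widest spread at CT21 (SD 62.6 and 54.2).

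The Ffar4 mean was 155 ± 61.8 (SD, n = 24) in controls and 197 ± 36.1 (n = 22) in Bmal1iec-/- mice (1.27-fold, 95% interval 1.11 to 1.45; log2 fold change 0.34, SE 0.10, adjusted p = 0.018 in edgeR). Without time in the model the call was lost (adjusted p = 0.121), and over the alternatives tested against no change the adjusted p ran from 0.000172 to 0.121. By time, the log2 fold change was 1.10 (SE 0.26, adjusted p = 0.0226 in edgeR) at CT1, where SV384 and SV385 were at 198 and 255 and gave 1.31 with them, and 0.88 (SE 0.21, adjusted p = 0.0128) at CT9. In controls the lowest Ffar4 mean was 80.2 at CT1 and the highest 213 at CT13, 2.65-fold apart, with 138 at CT5 and 106 at CT9. The cosine peak in controls was at 16.3 ± 0.95 h (SE), with an amplitude of 36.4% of the mean level. In Bmal1iec-/- mice the amplitude was 13.7%. JTK_cycle gave exact p = 0.00685 in controls and 0.0261 in Bmal1iec-/- mice, the latter lost over all 48 mice (exact p = 0.123) and with any 1 of 7 mice left out (up to 0.0679). The difference in rhythm did not pass (adjusted p = 0.552 in edgeR), nor did that between day and night (log2 difference −0.67, SE 0.19, adjusted p = 0.198).

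Enteroendocrine cells are a known site of Ffar2 and Ffar4. Their 10 marker genes had a median log2 fold change of 0.03 and summed to 1000 to 1481 CPM in controls and 1200 to 1702 CPM in Bmal1iec-/- mice (medians 1228 and 1406), and 1 of the 10, Chgb, passed the edgeR test as higher (log2 fold change 0.38, adjusted p = 1.82e-07). Most of the rise in the sum was that of Chgb (2350 ± 250.2 normalized counts in controls and 3050 ± 408 in Bmal1iec-/- mice, SD), and the other 9 markers did not pass. Over time the control median of this sum ran from 1070.3 CPM at CT1 to 1302 CPM at CT17, beside the 2.71-fold range of Ffar2 and the 2.65-fold range of Ffar4. In Bmal1iec-/- mice this median ran from 1339 CPM at CT13 to 1457 CPM at CT17, above the control median at each time. At CT1 the sum was 1013 to 1197 CPM in controls and 1409 to 1442 in Bmal1iec-/- mice. At CT9 it was 1000 to 1251 against 1200 to 1702. At CT21, where Ffar4 did not pass, it was 1220 to 1295 against 1313 to 1606. Markers of immune cells, another site of Ffar2, are given with Hcar2 below. The part of either kind of cell in these differences was not tested.

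Hcar2 (ENSMUSG00000045502.6, chr5:123863570-123865499, minus strand), the receptor for niacin, butyrate and beta-hydroxybutyrate on colonocytes, adipocytes and immune cells, had the lowest estimate of the 10. Its lowest, median and highest normalized counts were 3.19, 6.26 and 13.2 in controls and 1.13, 4.66 and 10.3 in Bmal1iec-/- mice, with means of 6.97 ± 2.96 and 4.90 ± 2.20 (SD). The Bmal1iec-/- mean of normalized counts was below the control mean at 6 of 6 times, although the fitted log2 fold change at CT21 was 0.01. At CT13 the groups did not overlap (1.69 to 4.40 against 6.45 to 8.70), as in 6.43% of genes tested that were lower. The log2 fold change of −0.50 (SE 0.19, 95% interval −0.88 to −0.13) missed the threshold (adjusted p = 0.0836 in edgeR, and 0.0825 to 0.202 over the alternatives tested against no change). Adipocyte markers moved the same way: 7 of 7 were tested, 1 was lower (Cidec, log2 fold change −0.71, adjusted p = 0.0203 in edgeR), their median log2 fold change was −0.96, and they summed to a median of 119.5 CPM in controls (24.9 to 512) and 47.7 in Bmal1iec-/- mice (24.1 to 354). Of the other sites, T cell (−0.25, 4 markers tested), macrophage (−0.08, 7 tested) and colonocyte (−0.06, 10 tested) markers also had a median below 0. The 1 neutrophil marker of 6 that was tested had −0.11, and the 2 B cell markers tested had a median of 0.04. None of these T cell, macrophage, neutrophil or B cell markers passed the edgeR test. Of the colonocyte markers 2 were higher and 3 lower, beside 5.44% and 5.64% of genes tested. The part of any of these cells in the Hcar2 values was not tested. Hcar2 was not called rhythmic in either genotype (JTK_cycle exact p = 1 in both).

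Gpr35 (ENSMUSG00000026271.15, chr1:92950865-92986391, plus strand), a receptor linked to kynurenic acid and lysophospholipids and expressed in gut epithelium and immune cells, was called rhythmic in both genotypes. In controls the highest values were at CT9 (127, 206, 181 and 179) and the lowest at CT21 (101, 114, 102 and 115). In Bmal1iec-/- mice the same times were highest (129, 209, 194 and 224) and lowest (87.2, 129, 136 and 145). The genotypes overlapped at all 6 times. The cosine amplitude was 20.2% of the mean level with a peak at 8.39 ± 0.64 h (SE) in controls and 22.3% with a peak at 8.78 ± 0.76 h in Bmal1iec-/- mice, and JTK_cycle gave exact p = 6.3e-06 and 0.00052. Gpr35 was the 1 member with a q under 0.05 in Bmal1iec-/- mice (0.0218, against 0.000328 in controls), as had 9.43% of genes tested. The interaction of genotype and rhythm was far from the threshold (adjusted p = 0.982 in edgeR). Its mean was 146 ± 26.8 in controls and 159 ± 33.5 in Bmal1iec-/- mice (log2 fold change 0.12, 95% interval 0.02 to 0.23, adjusted p = 0.146), with a higher Bmal1iec-/- mean at 6 of 6 times. SV384 and SV385, at 103 and 112, were below the controls of CT1 (124 to 166), and with them the log2 fold change at CT1 turned from 0.02 to −0.18.

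Slc16a1 (ENSMUSG00000032902.1, chr3:104638668-104658462, plus strand), the proton-coupled carrier of butyrate, lactate and pyruvate, was higher at CT5, CT9 and CT13, with its lowest control mean at CT9. At CT9 its normalized counts were 573, 551, 637 and 637 in controls and 1018, 817, 774 and 954 in Bmal1iec-/- mice. At CT5 they were 687, 751, 772 and 796 against 870.5, 948, 1329 and 1063, and at CT13 806, 766, 669 and 616 against 853, 936, 968 and 1015. Every Bmal1iec-/- mouse was above every control at these times and at CT1 (748 to 906 against 1064 and 1141), as were 1.99%, 2.22%, 6.60% and 16.7% of genes tested at CT9, CT5, CT13 and CT1. At CT17 the values were 951, 829.7, 842 and 1036 against 1121, 951, 1119 and 1148, and at CT21 1037, 833, 957 and 918 against 1118, 1269.8, 1118 and 981. There the genotypes overlapped by 1 Bmal1iec-/- mouse at each time.

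The Slc16a1 mean was 787 ± 136 (SD, n = 24) in controls and 1026 ± 139 (n = 22) in Bmal1iec-/- mice, 1.32-fold (95% interval 1.24 to 1.40; log2 fold change 0.40, SE 0.05, adjusted p = 4.13e-09 in edgeR), and the adjusted p stayed between 1.49e-09 and 1.39e-08 with any single mouse left out. By time the log2 fold change was 0.58 (SE 0.11, adjusted p = 0.000432 in edgeR) at CT9, 0.48 (SE 0.10, adjusted p = 0.013) at CT5 and 0.40 (SE 0.10, adjusted p = 0.0168) at CT13. At CT1 it was 0.45 (SE 0.13, adjusted p = 0.0511) with the 2 mice of the fit and 0.67 (adjusted p = 9.03e-05) with SV384 and SV385, at 1419 and 1549 above every other mouse of the series. At CT17 and CT21 it was 0.25 and 0.26 and did not pass. JTK_cycle called Slc16a1 rhythmic in controls (exact p = 4.39e-06; cosine peak at 20.5 ± 0.55 h (SE), amplitude 19.9% of the mean level) and in Bmal1iec-/- mice (exact p = 0.0213; 22.3 ± 1.15 h, 11.4%). The latter had q = 0.199 and was lost with any 1 of 3 mice left out (exact p up to 0.0679), and the difference in rhythm did not pass (adjusted p = 0.453 in edgeR).

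Slc5a8 (ENSMUSG00000020062.7, chr10:88885992-88929515, plus strand), the sodium-coupled carrier of butyrate and lactate of the colonocyte's luminal face, differed between genotypes by less than its spread: 653 ± 96.1 (SD, n = 24) in controls and 625 ± 139.6 (n = 22) in Bmal1iec-/- mice (log2 fold change −0.07, 95% interval −0.20 to 0.06, adjusted p = 0.575 in edgeR). Controls ran from 515 to 856 and Bmal1iec-/- mice from 349.5 to 828. At CT13 the Bmal1iec-/- mice, at 529.6, 496, 467 and 532, were all below the controls, at 736, 768, 625 and 544 (6.43% of genes tested were lower without overlap there), and the log2 fold change of −0.40 (SE 0.16) missed the threshold (adjusted p = 0.141). At the 5 other times the genotypes overlapped. SV384 and SV385, at 930.3 and 1224, were above all other mice of the series, and with them the log2 fold change at CT1 turned from −0.08 to 0.37 (adjusted p = 0.117 in edgeR). JTK_cycle called a rhythm in controls (exact p = 0.0213, q = 0.107, cosine peak at 18.2 ± 1.09 h (SE), amplitude 12.4%) and not in Bmal1iec-/- mice (exact p = 0.112, or 0.0102 over all 48 mice), and the difference in rhythm did not pass (adjusted p = 0.578).

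Slc16a3 (ENSMUSG00000025161.16, chr11:120948480-120960868, plus strand), the lactate exporter of glycolytic cells, was low: 4.30 to 18.2 normalized counts in controls and 6.63 to 20.3 in Bmal1iec-/- mice, with means of 12.3 ± 3.80 and 12.8 ± 4.60 (SD). The genotypes overlapped at all 6 times (log2 fold change 0.03, 95% interval −0.25 to 0.32, adjusted p = 0.928 in edgeR), and neither was called rhythmic (JTK_cycle exact p = 1 in both). SV384 and SV385 had 23.6 and 19.9.

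Ahr (ENSMUSG00000019256.17, chr12:35497974-35535038, minus strand), the transcription factor that binds indoles, differed between genotypes by less than its spread: 90.6 ± 11.4 (SD, n = 24) normalized counts in controls (68.8 to 112) and 91.7 ± 13.9 (n = 22) in Bmal1iec-/- mice (57.1 to 124). The genotypes overlapped at all 6 times (log2 fold change 0.03, 95% interval −0.08 to 0.14, adjusted p = 0.8 in edgeR). In controls its mean fell from 102 ± 12.6 at CT1 to 82.3 ± 11.5 at CT13 (JTK_cycle exact p = 0.0423, q = 0.183), a call lost with any 1 of 15 of the 24 mice left out. In Bmal1iec-/- mice the highest mean was at CT17 (104 ± 14.4) and the lowest at CT9 (80.6 ± 17.2), with exact p = 0.322, and the difference in rhythm did not pass (adjusted p = 0.34 in edgeR). Of its 6163 exon bases, 127 overlap the opposite-strand long noncoding RNA Gm48236, and the strand setting of the read counting is not stated.

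**Figure D3:**
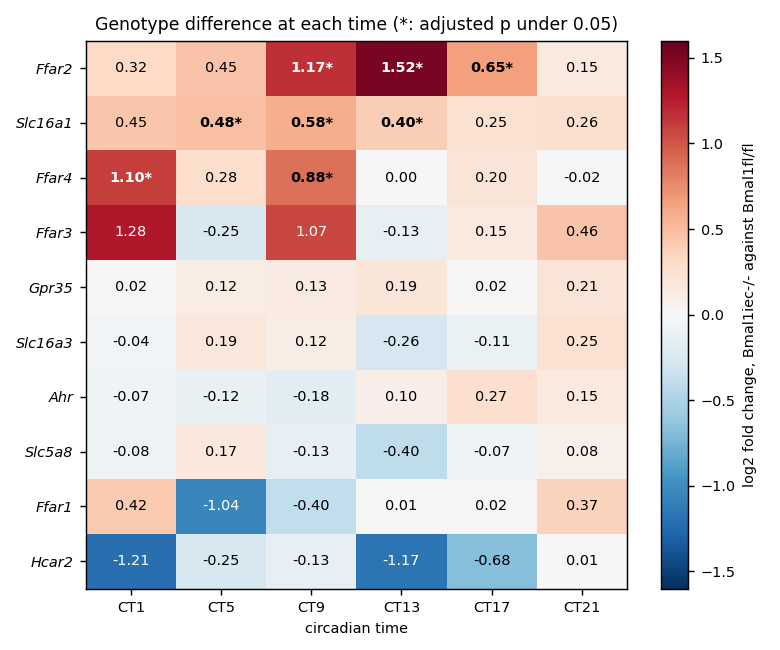
Log2 fold change between Bmal1iec-/- and control mice at each circadian time (columns) for each gene (rows, ordered by the difference over all times), as a colour and a number, with * and bold where the adjusted p within that time was under 0.05. The 8 marked cells belong to Ffar2 (3 times), Slc16a1 (3) and Ffar4 (2), and none is at CT21.

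Set side by side, 8 of the 60 pairs of gene and time passed the edgeR test within their time: 1 gene at CT1 and at CT5, 3 at CT9, 2 at CT13, 1 at CT17 and 0 at CT21 (1 at an unadjusted p under 0.05 there, and 0 in DESeq2). The share of all genes tested that passed was 1.51% at CT1, 0.456% at CT5, 1.82% at CT9, 4.72% at CT13, 1.11% at CT17 and 0.394% at CT21. At CT9 the 3 genes were Ffar2, Slc16a1 and Ffar4. At CT13 Ffar2 and Slc16a1 were higher and Ffar4 had equal means, CT13 being the time of the lowest control mean of Ffar2 and of the highest control mean of Ffar4. Over all 48 mice 3 members passed at CT1 (Ffar3, Ffar4 and Slc16a1), where 25.2% of all genes tested then passed. The test of a difference between day (CT1 to CT9) and night (CT13 to CT21) passed for 0 of the 10 in edgeR, beside 0.0691% of all genes, with Ffar4 lowest at an adjusted p of 0.198 (0 of those tested by DESeq2 too, and 2 of 10 at an unadjusted p under 0.05 in edgeR).

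JTK_cycle called 6 of the 10 rhythmic in controls and 3 in Bmal1iec-/- mice at p under 0.05, beside 50.0% and 29.3% of the genes tested, so that the members' shares were near those of all genes. With q over all genes, 4 were called in controls and 1 in Bmal1iec-/- mice (33.4% and 9.43% of genes tested). The 3 called in both genotypes were Gpr35, Slc16a1 and Ffar4, the 3 called in controls and not in Bmal1iec-/- mice (26.6% of genes tested) were Ffar2, Slc5a8 and Ahr, and 4 were called in neither (Ffar1, Ffar3, Hcar2 and Slc16a3, the genes under 15 normalized counts). The control peaks were spread over the day: Ahr at 3.85 h, Gpr35 at 8.39 h, Ffar4 at 16.3 h, Slc5a8 at 18.2 h, Slc16a1 at 20.5 h and Ffar2 at 23.9 h. A call in 1 genotype and not in the other is no test of a difference, which only Ffar2 passed.

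**Figure D4:**
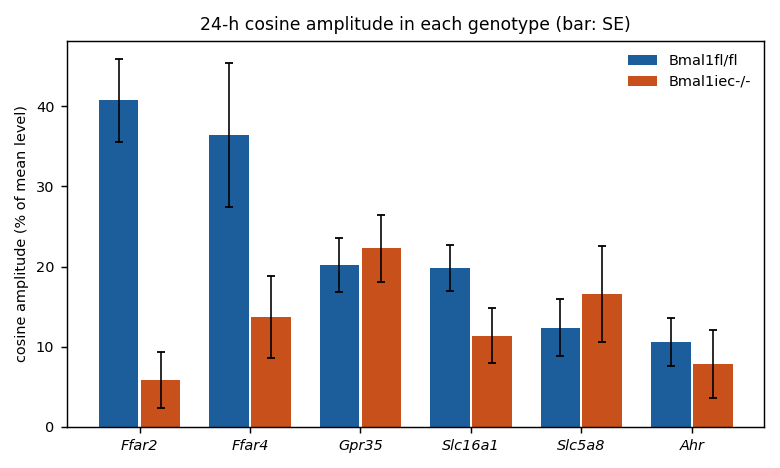
Amplitude of a 24-h cosine fitted to normalized counts, in percent of the mean level (vertical axis, from 0; bars with SE), for the 6 genes that JTK_cycle called in controls (blue, n = 24) or Bmal1iec-/- mice (orange, n = 22). Ffar2 goes from 40.7% to 5.83%, and Gpr35 stands at 20.2% and 22.3%.

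Genes around the 10 were taken from lists of their pathways. Of 16 tested genes of butyrate oxidation and ketogenesis, 11 were higher in Bmal1iec-/- mice and 0 lower (adjusted p under 0.05 in edgeR, also 0 lower at an unadjusted p and in DESeq2), with a median log2 fold change of 0.13 and none past 1.5-fold, beside 5.44% of genes tested that were higher and a median of 0.0049 over all genes. Markers of muscle and stroma had lower values in Bmal1iec-/- mice. Of 6 smooth muscle markers 2 passed as lower (median log2 fold change −0.19), and their summed level had a median of 4680 CPM in controls (3555 to 5705) and 4093 CPM in Bmal1iec-/- mice (3115 to 5311). Of 6 fibroblast markers 1 passed as lower (median −0.13), with 1380 CPM (958 to 1673) and 1205 CPM (872 to 1728). Of 10 colonocyte markers 2 passed as higher and 3 as lower (median −0.06), with summed medians of 21518 CPM in controls and 20670 CPM in Bmal1iec-/- mice. Of all genes tested, 5.64% were lower. The part of any of these cell types in the values of the butyrate genes was not tested. Acaa2, a thiolase of mitochondrial beta-oxidation, rose by 0.24 (SE 0.03, adjusted p = 8.18e-07 in edgeR). Butyrate is among the fuels these enzymes act on, and 14 of the 16 were called rhythmic in controls and 8 in Bmal1iec-/- mice, beside 50.0% and 29.3% of genes tested. Whether the change differs from that of all genes was not tested.

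Of 13 other genes of monocarboxylate transport, 1 was higher and 4 were lower, with a median log2 fold change of −0.12. Of all genes tested, 5.44% were higher and 5.64% lower by the same rule. Bsg, the chaperone that brings Slc16a1 and Slc16a3 to the membrane, was higher by 0.11 (SE 0.04, adjusted p = 0.0407 in edgeR). Slc26a3, the chloride exchanger of the surface colonocyte, was lower past 1.5-fold (log2 fold change −0.77, SE 0.08, adjusted p = 1.38e-09), and the carrier Slc16a5 was also lower (log2 fold change −0.34, SE 0.07, adjusted p = 0.000511). Slc16a9, a carrier of the same family, was among the lower genes too, and it and Bsg were named after their values were seen. Slc26a3 is also 1 of the 10 colonocyte markers, of which 2 were higher and 3 lower.

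Of 10 tested genes of receptor signalling (median log2 fold change −0.02), 2 were higher and 0 lower, with 1 lower at an unadjusted p in edgeR and 0 in DESeq2: Arrb1, an arrestin that ends and redirects receptor signals (log2 fold change 0.36, SE 0.04, adjusted p = 7.67e-10 in edgeR), and Il18, a cytokine of the epithelium (0.55, SE 0.08, adjusted p = 3.42e-06). Of 8 other metabolite receptors (median −0.11), 0 were higher, also at an unadjusted p in edgeR and in DESeq2, and 1 was lower, the vitamin D and bile acid receptor Vdr (−0.28, SE 0.04, adjusted p = 8.29e-08), and the olfactory-type receptor Olfr558 had −0.18 (SE 0.11, adjusted p = 0.333). Of 11 tested genes around AHR (median −0.03), 0 were higher, again also unadjusted and in DESeq2, and 1 was lower: Ido1, which makes kynurenine from tryptophan, at 29.7 normalized counts in controls and 14.7 in Bmal1iec-/- mice (log2 fold change −1.02, SE 0.22, adjusted p = 0.000892). The AHR target Tiparp did not pass (−0.07, SE 0.07, adjusted p = 0.587). Beside the counts of these 3 lists stand 5.44% of all genes tested that were higher and 5.64% that were lower.

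Over the means of the 12 groups of genotype and time, the genes whose log2 CPM followed each of the 3 called members most closely were, for Ffar2, Prnp (Pearson's r = 0.96), AC106834.1 (0.95) and Arrb1 (0.94), for Ffar4, Gfer (0.98), Hsdl1 (0.96) and Mrps23 (0.95), and for Slc16a1, Retsat (0.96), E2f2 (0.95) and Fcho1 (0.95). These are correlations over 12 points from 46 mice that share libraries and were picked as the highest of 14475 genes, and are given without a test. Arrb1 was thus named by the signalling list and by its likeness to Ffar2: it was higher in Bmal1iec-/- mice as given above and rhythmic in controls (JTK_cycle exact p = 3.37e-05) and not in Bmal1iec-/- mice (exact p = 0.691), with a difference in rhythm that passed (adjusted p = 0.0299 in edgeR). These values and the likeness to Ffar2 come from the same mice and times and are not separate results.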

How the data were processed

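Poly(A) RNA of the colon was sequenced in 48 mice (TruSeq Stranded mRNA kit, paired ends). By the study's methods, the authors trimmed reads with Trimmomatic 0.39, aligned them to mm10 with STAR 2.7.5c and made the deposited counts with featureCounts 1.4.6, keeping reads in an exon that overlap a single feature. These are raw counts per gene (GENCODE IDs), and the strand setting and sequencing batches are not given in the sources used here. All sample columns of the table were used.

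Genes kept by filterByExpr (14475) were tested with edgeR 4.0.16 (quasi-likelihood, TMM scaling, Benjamini-Hochberg adjustment over all genes kept, threshold 0.05) over 46 mice, with DESeq2 1.42.0 as an alternative. Normalized counts are counts divided by DESeq2 size factors of the 46 mice. Rhythms were tested by an own implementation of JTK_cycle (24 h period, 12 phases, exact null) and described by a cosine fit. The exact p given for JTK_cycle is that of the best phase, adjusted for the number of phases tried and capped at 1. TPM used exon lengths of GENCODE vM21. The other alternatives were DESeq2 size factors in edgeR, no filter, no time term, day times alone, TMM-scaled CPM or edgeR's cosine test for rhythms, q in place of p, all 48 mice, a test against a fold of 1.5, and each mouse left out in turn. The scripts for the edgeR and JTK_cycle tests were tested on simulated data. Each mouse had 3144997 to 4785844 counted reads. Mice of a group are separate animals.

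The genes named are the 10 members, from each pathway list those past 1.5-fold and the 2 with the lowest adjusted p, and the 3 genes most correlated with each called member. The markers Chgb and Cidec were named after their values were seen. Some genes of the lists are not reported here by name. The members and the lists were chosen with earlier results of these data known. Sequence came from a RefSeq promoter table (GRCm38.p6).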

Additional observations from a re-analysis of the deposited data

Results flagged for a closer look

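Among 110 groups of 4 mice tested, 4 held a mouse whose gap to its nearest neighbour was large against the range of its group, where chance gives about 1 in 20. They were the Bmal1iec-/- mice with 166 normalized counts of Ffar4 and 951 of Slc16a1 at CT17 (the same mouse, SV416), 110.4 of Gpr35 at CT17 (SV399) and 110.4 of Ahr at CT13 (SV448).

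The rhythm of Ffar2 differed between genotypes by a test of the difference itself (adjusted p = 0.000453 in edgeR).

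The Bmal1iec-/- mice SV384 and SV385, which no comparison over 46 mice used, were both above every control of CT1 in 5 of the 10 genes, as they were in 25.2% of all genes tested. The lower of the pair had 12.9 normalized counts of Ffar3, 198 of Ffar4, 930.3 of Slc5a8, 1419 of Slc16a1 and 19.9 of Slc16a3.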

How the results depend on the processing

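At an adjusted p under 0.05, 1605 genes and 3 of the 10 members differed between genotypes, and 197 genes passed 1.5-fold. The latter count was 319 without the filter. The former was 819 without a time term, 482 at the day times alone and 51 when tested against a fold of 1.5 (0 members, and all 51 past 1.5-fold). The 10 genes of the day and night test became 18 over all 48 mice and 19 in DESeq2, and the 136 of the change of rhythm 278 over all 48. Of the 32471 genes with a count, and not only those past the filter, JTK_cycle with q in place of p called 5026 in place of 7810 genes in controls, and 1396 in place of 4597 genes and 1 member in Bmal1iec-/- mice. At CT1, 218 genes and 1 member passed, against 3593 and 3 over all 48 mice and 370 and 2 in DESeq2. With 1 mouse left out, 1457 to 1647 genes and 3 members differed between genotypes, 188 to 213 passed 1.5-fold, 7 to 15 passed the day and night test with 0 members, 110 to 162 changed rhythm with 1 member, and JTK_cycle called 7244 to 7790 genes and 4 to 7 members in controls and 4094 to 4982 and 2 to 4 in Bmal1iec-/- mice. Log2 fold changes of the genotype turned sign for Slc5a8 over all 48 mice (0.000208) and at the day times (0.00243), and at the day times for Ahr (−0.13) and the tuft cell marker Trpm5 (−0.000392). At CT1 over all 48 mice they turned for Gpr35 (−0.18), Slc5a8 (0.37) and Slc16a3 (0.61). The cause was not tested. With 1 mouse left out, the genotype log2 fold change ran from −0.019 to 0.068 for Slc16a3 and from −0.13 to 0.0023 for the B cell marker Cd79b, and the day and night difference from −0.043 to 0.11 for Ffar2 and from −0.036 to 0.060 for Gpr35. Leaving out a mouse gained a rhythm for Ffar3 in controls with any 1 of 3 mice left out (exact p down to 0.0282). In Bmal1iec-/- mice it gained one for Ffar1 with 1 mouse (0.0246) and for Slc5a8 with 1 (0.046). The rhythm of Slc5a8 in controls was lost with any 1 of 3 left out (up to 0.0674). Hcar2 did not pass the filter over 48 mice, nor did Ffar1, Ffar3 and Hcar2 at the day times alone. Ffar1, Ffar3, Hcar2 and Slc16a3 had 1 to 23 reads per mouse, which limits the precision of their differences.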
